A study of Mus musculus with 13 samples.

Results

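A tandem acceptor is an intron end at which 2 AG dinucleotides lie 3 nt apart, so that the same intron can be cut off at either AG and the next exon starts 3 nt earlier or later. The deposited splicing table held 2417 alternative acceptor entries whose site adds exactly 3 nt to the exon, among 283765 events of all kinds. Of these, 1967 were covered by 10 reads or more in 4 libraries or more, and 1011 of them also had a mean usage of 5 to 95% over the libraries so covered. These 1011 sites, in 930 genes, are described here. Usage is percent spliced in (PSI), the share of reads that support the upstream acceptor, the AG met first by the spliceosome on its way along the intron, which gives the longer exon. Because the sites were chosen by their mean PSI, that mean is given as a description and nothing is tested on it.

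The libraries were made from mouse cerebella on the C57BL/6 background with a modified stranded mRNA kit. Wild-type (WT) mice gave 2 libraries at postnatal day 1 (P1, libraries 8 and 9), 2 at P10 (libraries 5 and 6) and 3 at P30 (libraries 1, 2 and 3). Sam68 knockout (KO) mice, which lack the RNA-binding protein encoded by Khdrbs1, gave 3 libraries at P1 (libraries 13, 14 and 15) and 3 at P10 (libraries 10, 11 and 12), and no knockout library at P30 is among those used here. Nothing in the labels says that a library stands for its own animal, how the allele was made or whether it acts in all cells, so p-values measure only the spread between these libraries.

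The spliceosome recognises the end of an intron through the 2 subunits of U2AF, of which the large subunit U2AF2 binds the polypyrimidine tract and the small subunit U2AF1 binds the AG. The second step of splicing then joins the exons at an AG, and where NAGNAG stands at the intron end both AGs can be used. Choice between them inserts or removes a single amino acid where the intron lies between codons, can also exchange a neighbouring residue where it interrupts a codon, and leaves the reading frame open unless a stop codon arises. Sam68 is a STAR-family protein that binds A and U rich RNA and is known for its control of alternative exons in neurons.

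The sequences below show what the acceptors that carry the results look like. Each line gives the 3 nt between the AGs in capitals, followed by the first 24 nt of the shorter exon in lower case, read 5′ to 3′ from GENCODE M21 transcripts (GRCm38), after matching the intron by gene and length. For Pax2, Hnrnpc and Puf60 a further 20 nt of the intron end are given before the capitals, because another transcript runs across the site.

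Camk2b: CAGccaagagtttactcaacaagaaag
Rcan3: AAGtatctggcaggcatcctagaactt
Reps1: CAGtgggagacatttagtgaacgctct
Rev1: CAGatataccagattcatcagtatggg
Mid1ip1: CAGaaaaaggctagacccagccaccca
Pdcd6ip: GAGgtattccccaccctggctgcaaag
Gnas: TAGtgagaaggccactaaagtgcagga
Ptbp2: AAGagatcacaaaatggctcttcttca
Pax2: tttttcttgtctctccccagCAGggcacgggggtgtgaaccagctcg
Hnrnpc: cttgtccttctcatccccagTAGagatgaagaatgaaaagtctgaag
Puf60: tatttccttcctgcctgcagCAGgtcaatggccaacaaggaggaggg

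In Pax2, Hnrnpc and Puf60 the polypyrimidine tract runs up to the first AG, and the capitals are the second NAG. The triplet could be read for 820 of the 1011 sites, and it was NAG in 819 of them (99.9%). The triplet ends at the downstream acceptor, so NAG follows from the definition of a tandem acceptor. The share of NAG is therefore only a check of the matching. In all annotated internal exon starts of the same genes, 1756 of 18166 (9.67%) begin with NAG. That count can include starts of the sites themselves, and the contrast with it does not measure enrichment. The triplet was CAG in 581 sites (70.9%), AAG in 131 (16.0%), TAG in 82 (10%) and GAG in 25 (3.05%). Among the 587 entries with a readable triplet whose mean PSI was over 95%, and which were therefore left out, AAG made up 286 (48.7%), GAG 190 (32.4%) and CAG 88 (14.99%). Among the 41 readable entries with a mean under 5%, CAG made up 32 (78.0%). Readable entries were 41 of 241 with a mean under 5% and 587 of 715 with a mean over 95%. A triplet was read only where an annotated exon contained it, which favours sites whose upstream acceptor is annotated. The 819 sites read as NAG had a median mean PSI of 71.9%, against 66.8% over all 1011 sites. These shares therefore describe the readable entries only.

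Within the sites chosen whose triplet could be read, mean PSI was lowest where the second triplet was CAG and highest where it was GAG. The median of the mean PSI was 65.2% for CAG (quartiles 38.4% and 83.6%), 70.4% for TAG (36.1% and 87.4%), 85.0% for AAG (70.9% and 92.3%) and 90.9% for GAG (84.4% and 93.0%). Both triplets were known for 170 sites, so the first could be set against the second. Sites with CAGCAG numbered 93 and had a median of 51.8%, spread from 5.38% to 94.7%. The 22 TAGCAG sites had a median of 75.9%, the 15 CAGAAG sites 80.4% and the 11 AAGCAG sites 30.7%. These values describe the chosen sites that could be read, and the same hexamer CAGCAG was used at nearly every level the rule allowed.

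Mean PSI over all libraries had a median of 66.8% (quartiles 31.6% and 86.0%), and 629 sites (62.2%) used the upstream acceptor in more than 50% of reads. The 5 group medians lay between 66.3% and 68.1% over the 913 sites with a value in all 5 groups. The log odds of the libraries correlated with r of at least 0.925 over the sites, as a description, and no library stood apart. The sites had a median of 99.3 reads per library, and the number of reads at them ran from 167751 in WT P1 library 8 to 284015 in WT P10 library 6. Most sites (894) belonged to an event with 2 acceptors, and 117 to an event with more, in which PSI is the share of all reads of the event. Sites in the same gene share its transcripts: 68 genes held 2 sites, and 6 held 3 or more. Just inside the limits were Syne2 (5.01%), Gas2l1 (5.17%), Exoc6b (94.96%) and BC005537 (94.97%), and just outside were Ttc15 (4.99%), Tonsl (4.93%), Fnip1 (95.03%) and D930015E06Rik (95.05%).

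**Figure D1:**
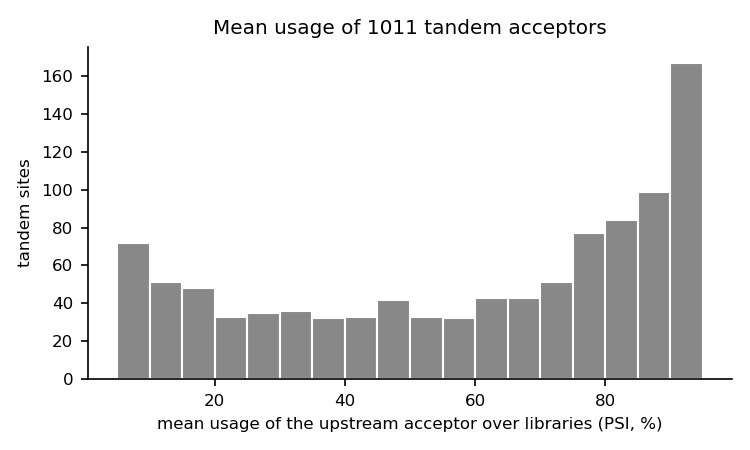
Number of tandem acceptors (vertical axis) by mean usage of the upstream acceptor over all libraries with at least 10 reads (horizontal axis, PSI in %), in bins of 5 points, for the 1011 sites. Both ends are fuller than the middle, and 350 sites lie between 80% and 95%.

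Where the intron lies in coding sequence, the 3 nt fall between codons or within one. Of 779 sites with a coding phase, 314 (40.3%) lay between codons, 320 (41.1%) after the first base of a codon and 145 (18.6%) after the second base. All 16478 internal coding exons of the same genes started in these positions in 47.4%, 30.9% and 21.6% of cases. A further 112 sites lay outside coding sequence in the matched transcripts, Rcan3, Mid1ip1 and Gnb1 among them.

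Usage varied little beyond counting error at most sites. Over the 814 sites with a value in all 13 libraries, the standard deviation (SD) across libraries had a median of 4.04 points, and the binomial SD that the reads alone would give had a median of 3.38 points. The reads are corrected estimates and not raw counts, so every binomial SD given here only approximates counting error. The ratio of the observed to the binomial SD had a median of 1.15 and reached 2 at 30 sites (3.69%). For the 1849 alternative acceptors of other lengths that met the same filters, the median ratio was 1.32 and it reached 2 at 285 (15.4%). Among sites read deeply enough for a binomial SD of at most 3 points, the range between the highest and lowest group mean had a median of 3.51 points over 339 tandem sites and 5.12 points over 687 other acceptors, and it reached 10 points at 11 (3.24%) and 97 (14.1%) of them.

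**Figure D2:**
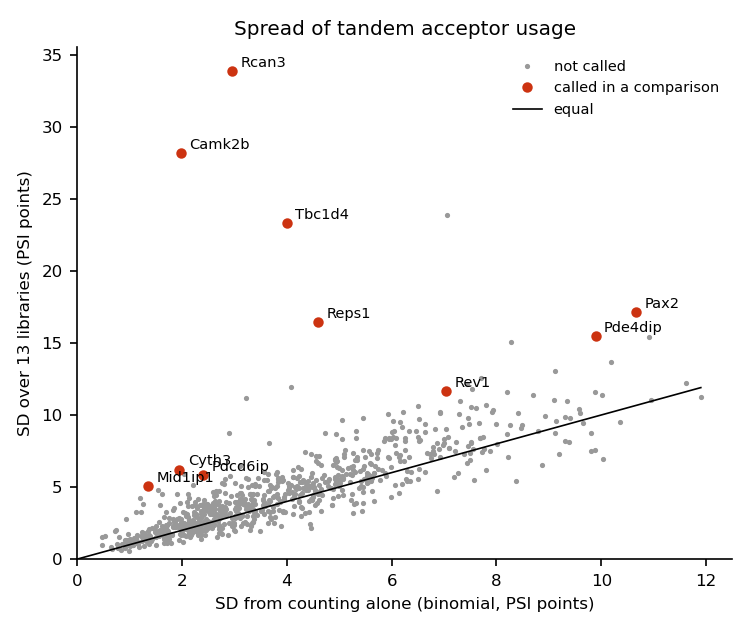
Observed SD over the 13 libraries (vertical axis) against the binomial SD from read numbers (horizontal axis), both in PSI points, for 814 tandem acceptors, with the 10 called sites in red and the line of equality. Most points lie close to the line, and Camk2b, Rcan3, Tbc1d4 and Reps1 lie far above it.

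Of the 5 sites with the most reads, 4 are given here. Their ratio of observed to binomial SD lay between 2.06 and 3.18, above the median of all sites, although their PSI moved by few points. Gnb1, a G protein beta subunit, had a mean of 6488 reads, and its PSI lay between 13.6% and 19.2% (mean 17.1%, SD 1.51 points against a binomial SD of 0.476). Nars, the cytosolic asparaginyl-tRNA synthetase, lay between 63.6% and 71.4% (SD 1.94, binomial 0.714). In both genes the spread exceeded counting error although the whole range stayed within 8 points.

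Eif4a2, a helicase of the translation initiation complex, lay between 25.3% and 32.5% (SD 2.03, binomial 0.739). Aamp lay between 6.08% and 9.19% (SD 0.97, binomial 0.474). In all 4 genes the P30 group mean was the lowest of the wild-type means, and none of the 4 passed the test in any comparison, the smallest adjusted p of limma among them being 0.0824 for Gnb1 at P30 against P10.

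At the 5 sites whose mean lay nearest 50% both acceptors were used about equally in every group. Abi1, an adaptor of the actin-regulating WAVE complex, lay between 43.2% and 54.7%, Rapgef1, an exchange factor for Rap GTPases, between 42.7% and 55.98%, and Spast, the microtubule-severing enzyme spastin, between 44.7% and 56.4%. Itpr1, the calcium release channel that is abundant in Purkinje cells, varied more, with 66.4% and 42.6% in WT P1 and 45.7%, 34.2% and 63.8% in KO P1, while its WT P30 libraries had 44.8%, 43.8% and 42.5%. These values rest on unlike depth, with 21 and 84 reads in WT P1, 68 to 79 in KO P1 and 630 to 1068 in WT P30. Within groups the SD of Itpr1 was 16.8 points in WT P1, 14.9 in KO P1 and 8.04 in KO P10. It was 0.495 in WT P10 and 1.18 in WT P30. Over all libraries it was 9.63 points (binomial 5.06). Rad51ap1, a DNA repair protein, lay between 36.8% and 58.6% on a mean of 90.1 reads (SD 7.61, binomial 7.56).

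A set of 5 genes with tandem acceptors reported in earlier studies was looked up, and Gnas and Igf1r were among the sites. Gnas encodes the stimulatory G protein alpha subunit, and its second triplet, which ends at the downstream acceptor, is TAG. The upstream acceptor of Gnas was the rarer one. Its PSI was 8.65% and 9.29% in WT P1, 8.15%, 8.03% and 7.97% in KO P1, 7.75% and 8.84% in WT P10, 9.29%, 8.71% and 7.75% in KO P10, and 8.79%, 9.50% and 9.46% in WT P30. Its SD of 0.643 points was below the binomial SD of 0.835. Igf1r, the receptor of insulin-like growth factor 1, lay between 8.68% and 20.3% with an SD of 3.75 points against a binomial SD of 3.55. The 3 KO P1 libraries of Gnas lay below both WT P1 libraries, by 0.92 points on average (limma, adjusted p = 0.9999), and the groups overlapped in its other 5 comparisons and in all 6 of Igf1r. Neither site passed the test in any comparison.

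Usage was compared between groups with limma on the log2 odds of the upstream acceptor, in a single fit of the 5 groups, with Benjamini-Hochberg adjustment over all events tested. A site was called at an adjusted p below 0.05 and a difference of at least 10 points. Over the 6 comparisons between groups there were 16 calls at 10 sites, 15 of them towards lower use of the upstream acceptor and 1 towards higher use. The lower call of Pdcd6ip lies in the reads of an additional acceptor. Its share of the tandem pair alone differed by 0 points, as given below. Comparisons that share a group share its libraries, so their calls are not independent of each other. The groups hold 2 or 3 libraries, which limits what can be called, and a site without a call is not thereby shown to be unchanged.

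In the knockout, 1 of 916 sites was called at P1 and 1 of 942 at P10, and both calls were the site of Rcan3, a regulator of calcineurin. Among all events tested the share called was 0.0238% at P1 (9 of 37825) and 0.0304% at P10 (12 of 39484). At an unadjusted p below 0.05 there were 27 tandem sites (2.95%) at P1 and 20 (2.12%) at P10, against 4.51% and 4.39% of all events. The median difference between knockout and wild type over the sites was -0.07 points at P1 and -0.08 points at P10, and the median absolute difference was 2.38 and 2.32 points. The difference between the knockout effects at the 2 ages was called at 0 of 889 sites by limma, with 19 at an unadjusted p below 0.05, and at 0 of 36332 events of any kind, with 2.55% at such a p against 2.14% of the tandem sites. Knockout and wild-type libraries did not overlap at 182 tandem sites (19.9%) at P1 and 176 (18.7%) at P10, and the share among all events tested was 19.4% and 18.3%.

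The Rcan3 site is an AAG at the start of an exon of 232 nt (mm9 chr4:134981129-134981360, minus strand) behind an intron of 8166 nt, outside the coding sequence of the matched transcripts. PSI was 86.0% and 85.0% in WT P1, 80.1% and 89.8% in WT P10, and 84.4%, 85.4% and 83.2% in WT P30. It was 17.2%, 16.7% and 15.5% in KO P1, and 15.5%, 44.4% and 18.5% in KO P10, with 133 to 572 reads in each library. All knockout libraries lay below all wild-type libraries, and KO P10 library 11 stood above the other knockout libraries. At P1 PSI was 16.5% ± 0.870 (SD, n = 3) in the knockout and 85.5% ± 0.721 (n = 2) in the wild type, a difference of -69.0 points and of -4.88 ± 0.53 (SE) in log2 odds (limma, adjusted p = 0.00674). At P10 it was 26.1% ± 15.9 (n = 3) and 84.9% ± 6.87 (n = 2), a difference of -58.8 points and of -4.18 ± 0.53 in log2 odds (limma, adjusted p = 0.0104). The P1 call was lost without WT P1 library 8 (limma, adjusted p = 0.0622). The P10 call was lost without WT P10 library 5 (0.0748), WT P10 library 6 (0.116) or KO P10 library 12 (0.0510), with a constant prior (0.0630) and with only the 2 P10 groups in the fit (0.812), while the difference stayed between -67.9 and -53.5 points in every setting tried.

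The level of Rcan3 transcripts differed in the same libraries. The deposited expression value, cRPKM (reads scaled to depth and to the mappable length), was 32.7 and 24.7 in WT P1 against 8.46, 10.03 and 8.25 in KO P1, and 20.6 and 19.5 in WT P10 against 9.63, 15.4 and 7.85 in KO P10. WT P30 had 33.3, 33.8 and 31.6. All knockout values lay below all wild-type values, and the highest of them, 15.4, was again KO P10 library 11. The log2 difference on the log2(cRPKM + 1) scale was -1.57 ± 0.25 (SE) at P1 and -0.87 ± 0.25 at P10, which did not pass the threshold (limma, adjusted p = 0.0800 and 0.884). Khdrbs1 itself had 56.5 and 74.4 cRPKM in WT P1, 5.42, 4.22 and 8.50 in KO P1, 61.2 and 56.2 in WT P10, 2.06, 1.28 and 3.59 in KO P10 and 31.4, 29.5 and 36.8 in WT P30, and it was lower in every knockout library than in every wild-type library.

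Rcan3 lies 5.58 Mb from the middle of Khdrbs1 on chromosome 4. Of the 76 tandem sites on that chromosome, 24 lay within 10 Mb of Khdrbs1. The other 23 differed between knockout and wild type by -8.96 to 7.95 points at P1 and by -10.8 to 10.6 points at P10, and 0 of the 22 tested at either age had an unadjusted p below 0.05. Of the events of any kind called in the knockout, 2 of 9 at P1 and 3 of 12 at P10 lay in this window, which held 1.66% and 1.67% of the events tested. These counts include the Rcan3 site itself at both ages, so they are not independent of it. Whether DNA linked to the knockout allele has a part in the Rcan3 difference was not tested.

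**Figure D3:**
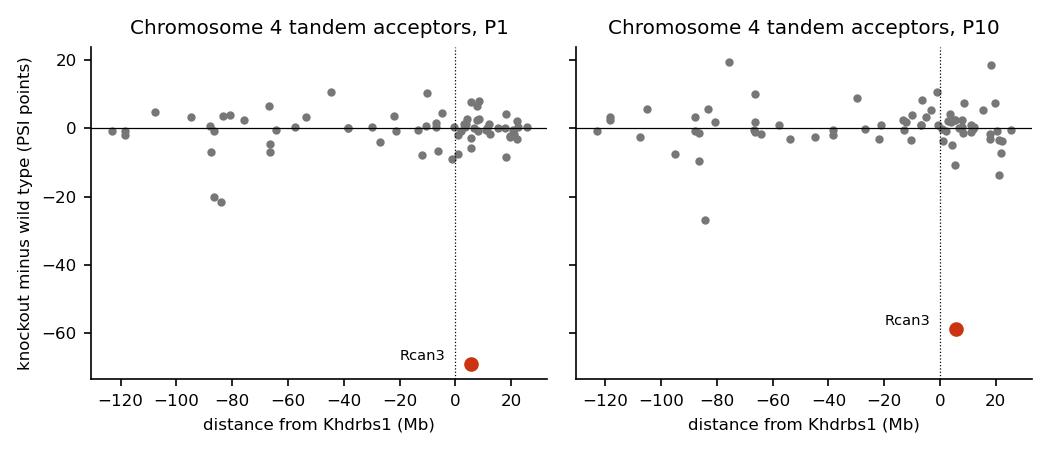
Difference in PSI between knockout and wild type (vertical axis, points) against distance from the middle of Khdrbs1 (horizontal axis, Mb) for the tandem acceptors on chromosome 4 with a value in the groups compared, at P1 and P10. Rcan3, in red, lies 5.58 Mb away at -69.0 and -58.8 points, and the other sites within 10 Mb lie between -10.8 and 10.6 points.

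The next smallest p-values in the knockout were those of sites that were not called. Cnnm3, a metal transport mediator, had 96.3% and 94.1% in WT P1 and 84.3%, 83.8% and 83.3% in KO P1 (limma, adjusted p = 0.399), without overlap. The P10 libraries of both genotypes and the WT P30 libraries lay between 81.9% and 89.2%. Sh2b2, a signalling adaptor, had 100% and 96% in WT P1 and 91.2%, 78.3% and 83.9% in KO P1 on a mean of 18.9 reads (limma, adjusted p = 0.757). Its WT P10 libraries had 84.6% and 72.2%, and the difference of -19.6 points from WT P1 was not called either (limma, adjusted p = 0.104). Dtnb, which encodes beta-dystrobrevin, had 89.2% and 97.5% in WT P10 and 79.4%, 77.8% and 69.7% in KO P10 (limma, adjusted p = 0.881). Its 3 KO P10 values are the lowest of all 13 libraries, and against the 97.9%, 87.8% and 96.0% of KO P1 the difference was -18.3 points (limma, adjusted p = 0.0865). Cep110, a centrosomal protein, had 97.96%, 100% and 100% in KO P1 and 91.8%, 91.4% and 93.3% in KO P10, a difference of -7.14 points that was not called (limma, adjusted p = 0.112). Fgd5, a guanine nucleotide exchange factor gene of endothelial cells, had 0% in both WT P10 libraries and 14.3% and 16.7% in 2 KO P10 libraries on a mean of 19.7 reads (limma, adjusted p = 0.9997), and it had no value in WT P30.

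With age, few tandem sites passed the test. In the wild type 2 of 901 sites were called at P10 against P1, 3 of 915 at P30 against P10 and 8 of 871 at P30 against P1, while 0.647%, 2.93% and 9.93% of all events tested were called. Of the 8 calls at P30 against P1, 7 were lower and 1 was higher, and 3.84% of all events were called in the lower direction. Without WT P1 library 8 the 8 calls at P30 against P1 became 4, and without WT P10 library 6 or WT P30 library 3 the 3 calls at P30 against P10 became 1. In the knockout, 1 of 937 sites was called at P10 against P1, against 0.849% of all events. Tandem sites with an unadjusted p below 0.05 numbered 26 (2.89%), 32 (3.5%), 58 (6.66%) and 33 (3.52%) in these 4 comparisons, against 12%, 15.5%, 27.7% and 11.2% of all events. Libraries of the 2 ages did not overlap at 286 (31.7%), 232 (25.4%), 256 (29.4%) and 113 (12.1%) tandem sites, against 44.6%, 32.5%, 45.2% and 16.7% of all events. Alternative acceptors of other lengths gave 0 of 2095 calls at P10 against P1, where 145 had an unadjusted p below 0.05, 24 of 2117 at P30 against P10, 96 of 1982 at P30 against P1 and 4 of 2219 in the knockout (limma). The median difference over the tandem sites was 0.11 points at P10 against P1, -0.97 at P30 against P10 and -0.85 at P30 against P1, and over all events it was 0.83, -0.20 and 0.90 points.

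The cell make-up of the cerebellum changes over the same days. The summed cRPKM of 8 markers of granule cell precursors and proliferation lay between 123.5 and 249.8 in WT P1 and between 17.2 and 23.7 in WT P30, and that of 8 markers of maturing and mature granule cells between 330.0 and 572.8 and between 1823 and 2070. Oligodendrocyte and myelin markers went from between 103.2 and 133.1 in WT P1 to between 3680 and 4586 in WT P30, and Purkinje cell markers from between 152.6 and 275.9 to between 1710 and 2045. In tissue RNA a change in the number of cells of a type cannot be told apart from a change within them, and the part of these shifts in the changes of usage was not tested. Between genotypes, the summed levels of 4 of 12 marker lists did not overlap at P1 and 3 of 12 did not at P10. At P1 the 8 markers of the midbrain and caudal hindbrain summed to between 14.8 and 25.5 in WT and between 0 and 10.4 in KO, and oligodendrocyte markers to between 103.2 and 133.1 and between 56.6 and 83.96. Purkinje cell markers were at 152.6 to 275.9 in WT P1 and 292.0 to 403.95 in KO P1, and microglia markers at 41.7 to 50.2 and 50.3 to 65.3. At P10 microglia markers were at 70.9 to 84.1 in WT and 93.35 to 122.4 in KO, inhibitory interneuron markers at 163.96 to 207.7 and 125.9 to 156.8, and choroid plexus markers at 1.64 to 278.6 and 280.8 to 663.3. The part of these differences in the comparisons of knockout and wild type was not tested.

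Camk2b encodes the beta subunit of calcium/calmodulin-dependent protein kinase II, a synaptic kinase, and its site had the largest change with age. The exon has 41 nt with the CAG and follows an intron of 5339 nt (mm9 chr11:5882724-5882764, minus strand), which interrupts a codon after its first base. PSI was 80.9% and 67.0% in WT P1, 19.5% and 24.7% in WT P10, and 1.92%, 4.07% and 3.06% in WT P30, on 400 to 1618 reads in each of these libraries. In the knockout it was 68.4%, 60.3% and 55.2% at P1 and 15.3%, 21.7% and 18.5% at P10. The ages did not overlap in either genotype, and the genotypes overlapped at both ages.

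In the wild type Camk2b fell by 51.9 points from P1 to P10 (limma, adjusted p = 0.00228) and by 19 points from P10 to P30 (limma, adjusted p = 0.000511). The first of these calls was lost with only the groups compared in the fit (limma, adjusted p = 0.0521). From P1 to P30 its difference was -70.9 points and -6.60 ± 0.40 (SE) in log2 odds (limma, adjusted p = 4.55e-07). In the knockout it fell by 42.8 points from P1 to P10 (limma, adjusted p = 0.00105). The knockout effect on it was -12.7 points at P1 and -3.57 points at P10, and neither passed the test (limma, adjusted p = 0.9999 and 0.9997). The level of Camk2b rose at the same time, from 55.3 ± 13.4 cRPKM (SD, n = 2) in WT P1 and 71.8 ± 16.5 (n = 2) in WT P10 to 185.9 ± 7.89 (n = 3) in WT P30 (limma on log2(cRPKM + 1), 1.75 ± 0.19 SE at P30 against P1, adjusted p = 3.07e-05).

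Tbc1d4, a Rab GTPase-activating protein, had the sole call towards higher use. Its exon has 162 nt (mm9 chr14:101857952-101858113, minus strand). PSI was 3.66% and 14.2% in WT P1, 37.7% and 20.4% in WT P10, and 62.2%, 67.6% and 64.0% in WT P30, and it was 11.1%, 11.7% and 4.47% in KO P1 and 39.1%, 33.7% and 10.01% in KO P10. The WT P30 libraries lay above all others. From P1 to P30 the difference was 55.7 points and 4.34 ± 0.77 (SE) in log2 odds (limma, adjusted p = 0.00280), and the call was lost without WT P1 library 8 (adjusted p = 0.0551). Tbc1d4 level did not pass the test at P30 against P1 (10.5 against 8.98 cRPKM, limma, adjusted p = 0.511).

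**Figure D4:**
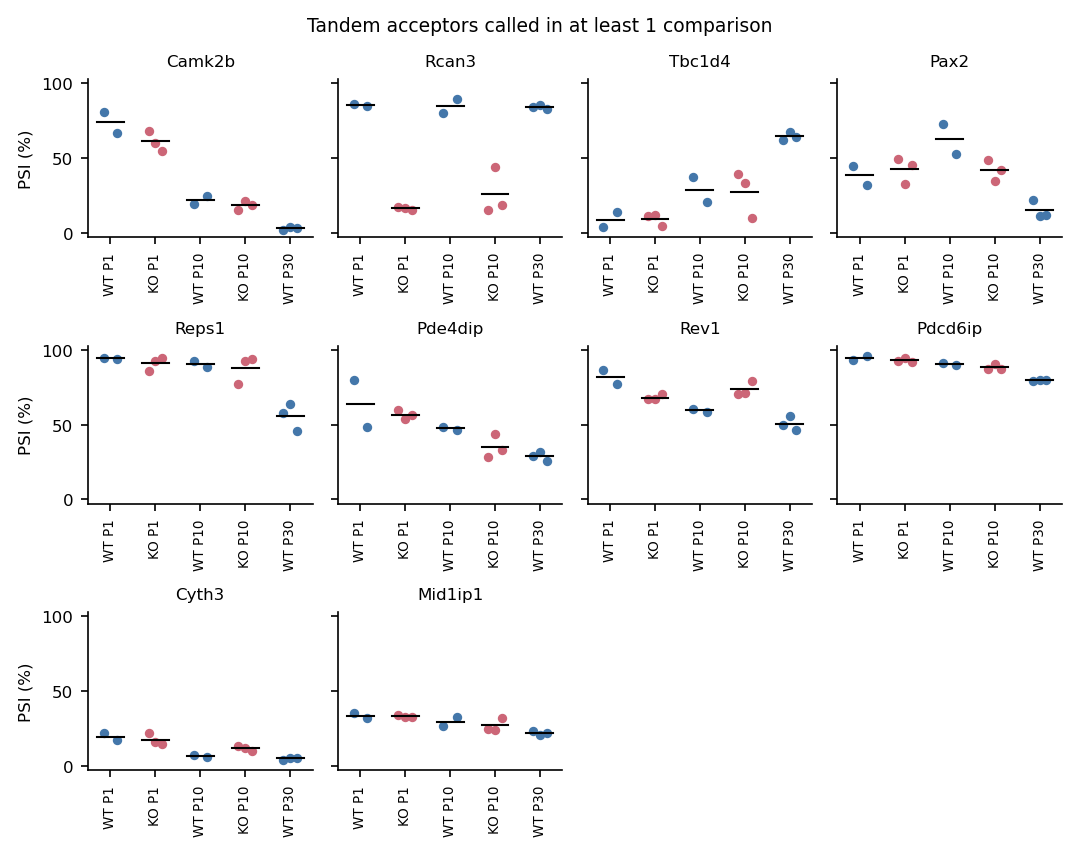
Usage of the upstream acceptor (vertical axis, PSI in %) in each library (points, blue for wild type and red for knockout) with the group mean (bar), by group (horizontal axis), for the 10 sites called in at least 1 comparison. Camk2b falls from 80.9% and 67.0% in WT P1 to at most 4.07% in WT P30, Tbc1d4 is highest in WT P30, and in Rcan3 the knockout libraries lie below the wild-type libraries at both ages.

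Reps1, an EH-domain protein of endocytosis, kept high use until P10, at an exon of 81 nt (mm9 chr10:17827474-17827554, plus strand). PSI was 94.8% and 93.8% in WT P1, 92.4% and 88.8% in WT P10, and 58.1%, 63.6% and 45.8% in WT P30, and the knockout libraries lay between 76.9% and 94.4%. The WT P30 libraries were below all others, on 43 to 72 reads. The difference was -34.7 points at P30 against P10 (limma, adjusted p = 0.0292) and -38.5 points at P30 against P1 (limma, adjusted p = 0.00393). The first of these was lost when WT P10 library 5 or 6 or WT P30 library 1 or 3 was left out (limma, adjusted p of 0.0648 to 0.176). It was also lost when the events fitted and adjusted over were widened to a mean PSI of 1 to 99 (limma, adjusted p = 0.0789). The second was kept in every setting. Reps1 level was 16.4 cRPKM in WT P1 and 16.6 in WT P30 (limma, adjusted p = 0.951).

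Cyth3, an exchange factor for ARF GTPases, moved from 22.0% and 17.0% in WT P1 to 7.36% and 5.83% in WT P10 and 4.18%, 5.50% and 5.46% in WT P30. The knockout had 22.1%, 15.9% and 14.9% at P1 and 13.4%, 12.2% and 10.03% at P10. The difference was -12.9 points at P10 against P1 (limma, adjusted p = 0.0486), a call lost without any library other than KO P1 library 13 and KO P10 library 12 (limma, adjusted p of 0.0553 to 0.318) and in 5 of the other settings, and -14.5 points at P30 against P1 (limma, adjusted p = 0.00110), a call kept in all of them. The P10 values of knockout and wild type did not overlap, and limma did not call the difference of 5.29 points (adjusted p = 0.9997).

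Rev1, a translesion DNA polymerase, had 86.8% and 77.4% in WT P1, 60.7% and 58.5% in WT P10, and 49.97%, 55.7% and 46.5% in WT P30 on 34 to 57 reads. Its P30 against P1 difference was -31.4 points (limma, adjusted p = 0.0130) and was lost without WT P1 library 8 (0.152) and with only the groups compared in the fit (0.0571). In the knockout it had 67.1%, 66.9% and 70.5% at P1 and 70.5%, 71.5% and 79.0% at P10, so wild type lay above knockout at P1 and below it at P10. The difference between the 2 knockout effects on Rev1, 28.0 points, was not called (limma, adjusted p = 0.99998).

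Mid1ip1, a regulator of lipid synthesis on the X chromosome, moved from 35.4% and 31.9% in WT P1 to 26.5% and 32.5% in WT P10 and 23.4%, 20.96% and 22.3% in WT P30. The difference of -11.4 points at P30 against P1 (limma, adjusted p = 0.0294) rested on 1052 to 2160 reads in each library, and the groups did not overlap. The call was lost without WT P1 library 8 or 9 or WT P30 library 2 or 3 (limma, adjusted p of 0.0772 to 0.206), with a constant prior (0.137) and with mean PSI of 1 to 99 (0.115).

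Pax2, a transcription factor of developing cerebellar inhibitory interneurons, was low in reads, and its CAGCAG site was used at 45.0% and 32.2% in WT P1, 73.2% and 53.1% in WT P10 and 21.8%, 11.2% and 12.3% in WT P30. The difference of -48.0 points at P30 against P10 (limma, adjusted p = 0.0160) came from 11 to 28 reads in each library and was lost without WT P10 library 5 (0.152), WT P10 library 6 (0.0509) or WT P30 library 3 (0.0573), and with only the groups compared in the fit (0.1003). Pax2 level itself was lower at P30 than at P1 (2.76 cRPKM against 12.1 in WT P1, limma, adjusted p = 0.0171). At P30 against P10, the comparison in which the site was called, the level did not pass the test (6.40 cRPKM in WT P10, limma, adjusted p = 0.291).

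In Pdcd6ip and Pde4dip the event has 3 acceptors, so PSI can change through the additional acceptor. Pdcd6ip, the ESCRT adaptor ALIX, had 93.6% and 96.02% in WT P1, 91.4% and 89.8% in WT P10 and 79.1%, 79.7% and 80.1% in WT P30, a difference of -15.2 points at P30 against P1 (limma, adjusted p = 0.00218). Counting only reads of the CAGGAG pair, the upstream acceptor took 99.3% to 100% in every library and the share of the pair differed by 0 points at P30 against P1 (limma, adjusted p = 0.856). The called difference lies in the reads of the additional acceptor.

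Pde4dip, a centrosomal and Golgi scaffold protein, had 80% and 48.3% in WT P1, 48.6% and 46.4% in WT P10 and 28.9%, 32.1% and 26.03% in WT P30. Its P30 against P1 difference was -35.1 points (limma, adjusted p = 0.0369), and it was the same with the pair alone. Without WT P1 library 8, which had the highest value, it was -19.3 points (limma, adjusted p = 0.371). The call was also lost without WT P10 library 5 or any 1 of the WT P30 libraries (limma, adjusted p of 0.0513 to 0.104) and in 3 other settings (0.0618 to 0.0874).

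Proteins that recognise the acceptor were examined in 2 ways, by their own tandem sites and by their level. The list held 35 names, with Dhx38 entered also as Prpf16 and Cdc40 also as Prpf17. Of these names, 6 held a tandem site, and 0 of the 6 was called in any comparison (limma). Of all tandem sites tested 1.01% were called in at least 1 comparison, and of events of any kind 9.21%, so a count of 0 among 6 says nothing particular about these factors. Ptbp2, the neuronal polypyrimidine tract-binding protein, lay between 42.8% and 49.5%. Puf60, a U2AF2-related protein, lay between 89.5% and 95.5%, Rbm39, a further relative, between 91.7% and 95.4%, and Sf3b2, a subunit of the U2 particle, between 91.3% and 96.5%.

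The remaining 2 factors stood further from a constant level at P30. Dhx38, a helicase of the second splicing step, had 67.4% and 68.9% in WT P1, 64.2% and 69.3% in WT P10 and 58.1%, 61.1% and 52.9% in WT P30 (-10.7 points at P30 against P1, limma, adjusted p = 0.161), with no overlap between P1 and P30. Hnrnpc, which competes with U2AF2 for uridine tracts, had 14.4% and 15.5% in WT P1, 13.6% and 12.9% in WT P10 and 22.2%, 17.95% and 18.3% in WT P30 (6.21 points at P30 against P10, limma, adjusted p = 0.209). Its event has 3 acceptors, and within the CAGTAG pair alone the upstream acceptor took 71.1% of the reads of the pair in WT P10 and 67.98% in WT P30, a difference of -3.14 points (limma, adjusted p = 0.821) that is opposite in sign to the difference in PSI.

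**Figure D5:**
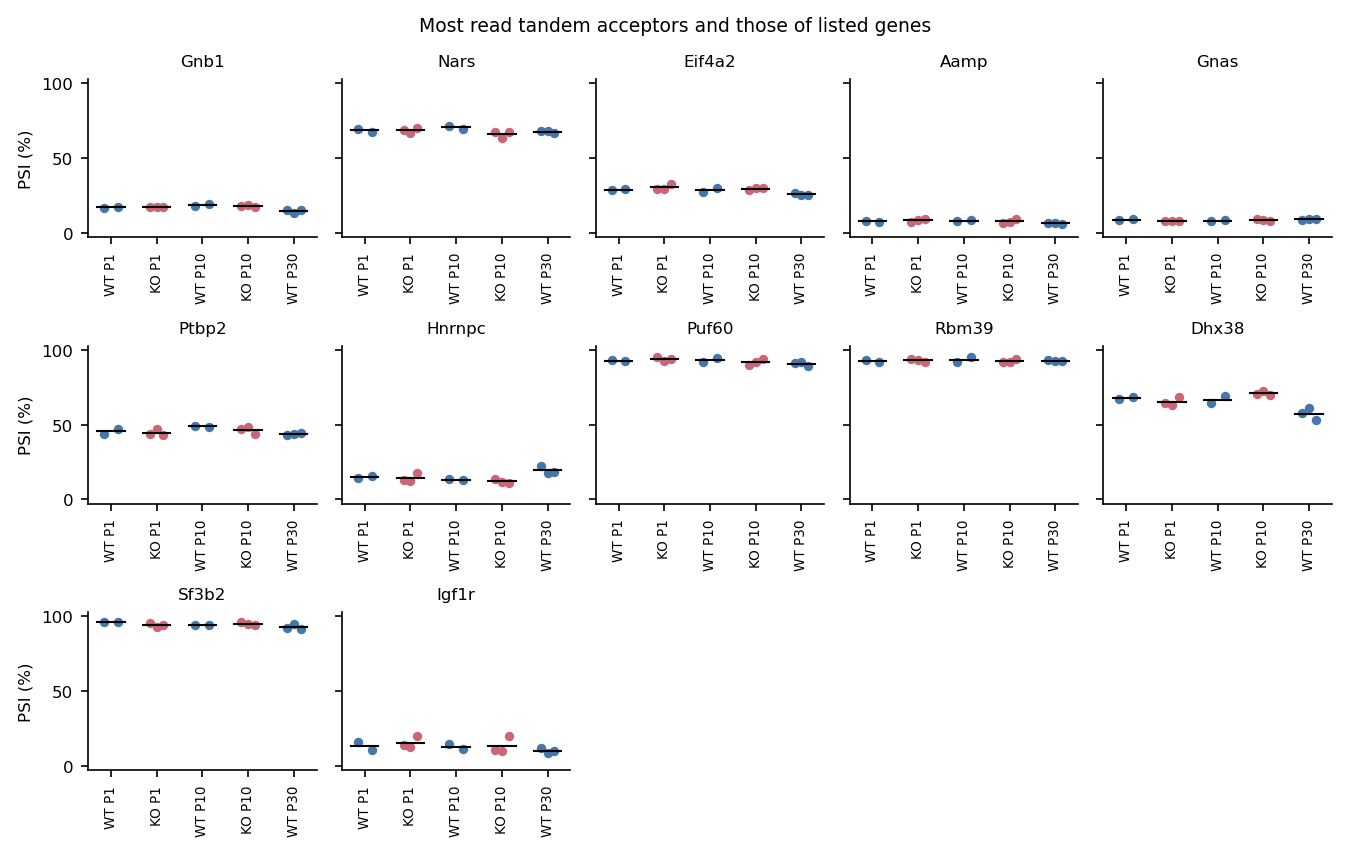
Usage of the upstream acceptor (vertical axis, PSI in %) in each library (points, blue for wild type and red for knockout) with the group mean (bar), by group, for 4 of the 5 sites with the most reads (Gnb1, Nars, Eif4a2, Aamp), the sites of acceptor recognition factors, and Gnas and Igf1r. The levels run from 6.08% for Aamp to 96.5% for Sf3b2, and within each gene the libraries stay close together, with the widest spread in Dhx38.

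The level could be tested for 31 of the 35 names on the list. Dhx38 and Cdc40 were among the 31, while their other names, Prpf16 and Prpf17, were not. In the knockout 0 were called at P1 and 0 at P10 (limma, with 3 and 1 at an unadjusted p below 0.05), where 0.0356% and 0.00711% of all 14063 genes were called. In the wild type 1 of 31 rose at P10 against P1, Prpf18, a factor of the second splicing step (1.17 ± 0.27 SE in log2(cRPKM + 1), limma, adjusted p = 0.0340), against 4.05% of all genes. In the knockout, 1 rose at P10 against P1, Hnrnpc (0.58, limma, adjusted p = 0.0140), and 1 fell, Prpf8, a core protein of the U5 particle (-0.64, limma, adjusted p = 0.0464), against 10.2% of all genes.

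At P30, 7 of 31 factors were lower than at P10 and 9 of 31 lower than at P1, and 0 were higher, where 14.7% and 25.4% of all genes were called (9.73% and 15.8% in the lower direction). These counts were 4 of 31 at P30 against P1 without WT P1 library 9, 3 of 31 at P30 against P10 without WT P10 library 6, 4 without WT P30 library 1 and 13 without KO P1 library 15. The median log2 difference at P30 against P1 was -0.31 over the factors and -0.13 over all genes tested. Hnrnpa1, which can block weak acceptors, fell by 2.09 (SE 0.17, limma, adjusted p = 3.22e-06), and Ptbp1, the polypyrimidine tract-binding protein of non-neuronal cells, fell by 1.79 (SE 0.19, limma, adjusted p = 2.70e-05). U2af1 fell by 1.16 (SE 0.16, limma, adjusted p = 0.000232) and U2af2 by 0.91 (SE 0.17, limma, adjusted p = 0.00202). The others that fell were Ptbp2, Sf3a3, Rbm17, Sf3b5 and Fam32a, by 0.47 to 0.82. The granule precursor markers given above fell across the same ages, and their part in these levels was not tested.

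Tandem sites were spread over genes of many functions. In the lists of RNA-binding and splicing genes, 28 of 128 genes held 35 sites, and of these 0 were called. Chromatin and transcription regulators held 39 sites in 29 of 110 genes with 0 called, and cytoskeleton and motor genes held 19 sites in 18 of 106 genes with 0 called. Synapse, channel and vesicle genes held 20 sites in 19 of 117 genes, and the 1 called site was Camk2b. With 1.01% of all tandem sites called, counts of 0 or 1 do not set these lists apart. The median range of group means was 3.88 points in the first list, 5.23 in the second, 5.49 in the third and 9.66 in the synapse list, against 6.84 points over all 913 sites with 5 groups. Range grows with counting error at lightly read sites, so these medians are not corrected for depth.

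Among the 913 sites, 274 (30.01%) had group means that ranged over at least 10 points and 47 (5.15%) over at least 20, and 4 (Camk2b, Rcan3, Tbc1d4 and Pax2) over at least 40. For the 2126 other alternative acceptors with 5 groups these shares were 42.4%, 13.1% and 1.65%. The counts are not corrected for depth, and of the 339 deeply read tandem sites 3.24% reached 10 points. With at least 20 reads needed for a value, 26 sites ranged over at least 20 points. In level, 93 of 932 host genes tested rose and 160 fell at P30 against P1 (limma), where 25.4% of all genes were called.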

How the data were processed

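The authors deposited percent spliced in (PSI) per splicing event and library, with a quality text that carries read numbers for each side, and expression as cRPKM, an RPKM corrected for mappable length. Per the submitters' processing notes FastQC and Trimmomatic were run (versions not given) and the build was mm9. The aligner and counting program were not given in the sources used here, and total sequencing depth is unknown. The reads in the quality text are corrected estimates, not raw counts, so no count model was used in the tests and intervals from them cover counting error only. The binomial SDs were computed from the same estimates and are approximate.

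Libraries were grouped by their labels. Values with under 10 reads were left out, and 30610 alternative splice site entries of length 0 were dropped because they repeat the other sites. Events of any kind under the same filters numbered 43837. For each, log2((reads for + 0.5)/(reads against + 0.5)) was fitted with limma 3.58.1 (R 4.3.3) in 1 model of 5 groups, with a prior that follows the number of reads. Events needed 2 libraries in each group compared, p-values were adjusted by Benjamini-Hochberg over all of them, and 993 of the 1011 tandem sites were tested in at least 1 comparison. Group differences are in PSI points. Expression was fitted with limma on log2(cRPKM + 1), leaving out genes below 1 cRPKM in all group means. The scripts (Python 3.11.15, pandas 2.3.3, numpy 2.4.6) were tested on simulated data.

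Introns were matched to GENCODE M21 by gene and by intron and exon length, never by coordinate, since no mm9 genome was used. Both acceptors were annotated for 566 sites, the upstream one for 227, the downstream one for 111, and 107 had no match. Bases came from the transcripts. Sites on chromosome 18 are given without sequence.

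The sites, the gene lists and the tests were chosen with earlier results of these data known. Sites named were those called, the 3 smallest p-values of each comparison, the 5 with the most reads, the 5 nearest 50%, the 5 largest ranges of group means, the 5 largest ratios of SD to binomial SD, those in the lists of earlier studies and of acceptor factors, and those next to a limit. Of these, 1 of the 5 with the most reads is not reported here. Alternatives were other filters, pseudocounts, scales, weights, priors, sets of events and of groups, and leaving out each library.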

Additional observations from a re-analysis of the deposited data

How the results depend on the processing

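Over 523 alternative values of the 23 named differences between groups, 471 kept their direction and their side of the threshold, 50 lost the call, 2 gained it and 0 changed sign. The share of the tandem pair alone was an alternative chosen after seeing the data. The 2 gains were Dtnb in the knockout at P10 against P1. Called tandem sites under other settings were as follows. The knockout at P10 had 0 with a constant prior and 0 with only the groups compared in the fit. P10 against P1 in the wild type had 1 with precision weights, 1 with a constant prior, 1 with mean PSI of 1 to 99 among the events adjusted over and 0 with only the groups compared. P30 against P10 had 8 on the PSI scale itself and 6 with precision weights, P30 against P1 had 15 on the PSI scale, and the knockout at P10 against P1 had 2 on it. Leaving out each library in turn gave 0 to 1 for the knockout at P1 and at P10, 1 to 2 for P10 against P1, 1 to 3 for P30 against P10, 4 to 10 for P30 against P1, 1 to 3 for the knockout at P10 against P1 and 0 for the difference of knockout effects. Called acceptor factors in expression numbered 0 at P10 against P1 with only the groups compared, 4 at P30 against P10 with scaling by the median of log ratios and 11 with only the groups compared, and 17 at P30 against P1 with only the groups compared. In the knockout at P10 against P1 they numbered 1 with a pseudocount of 0.1, 1 with no filter and 0 with only the groups compared. Leaving out libraries gave 0 to 2 at P10 against P1, 3 to 13 at P30 against P10, 4 to 13 at P30 against P1, 1 to 3 in the knockout at P10 against P1, and 0 in the knockout at either age. Sites whose group means ranged over at least 20 points numbered 26 with at least 20 reads per value and 48 to 67 when a library was left out. The causes of these shifts were not tested. Reads limit single values: the median binomial SD was 3.38 points. No paired analysis was possible because no library number of the labels occurs in more than 1 group.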

Other observations

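Some tandem acceptors had a spread well above counting error without a call, and they are named here after their values were seen. Grin1, the obligatory NMDA receptor subunit, belongs to an event of 3 acceptors. Its PSI was 49.5% and 48.0% in WT P1, 35.2% and 48.6% in WT P10 and 62.6%, 58.2% and 66.3% in WT P30, and 37.0%, 33.9% and 40.8% in KO P1 and 33.6%, 35.6% and 42.5% in KO P10. The WT P30 libraries lay above all others (20.5 points at P30 against P10, limma, adjusted p = 0.0780), and the KO P1 libraries below the WT P1 libraries. Its SD was 3.48 times the binomial SD.

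Rbm8a, the Y14 subunit of the exon junction complex, had an AAG site and a mean of 1820 reads. Its PSI was 58.7%, 63.8% and 60.03% in WT P30 and between 49.1% and 57.5% in the other 10 libraries, and it passed the test in no comparison. Hcfc1, a host cell factor that binds chromatin, had 23.2%, 19.2% and 19.6% in WT P30 and between 24.8% and 33.6% elsewhere (-9.13 points at P30 against P1, limma, adjusted p = 0.0888). Scamp3, a secretory carrier membrane protein, had 40%, 38.6% and 38.8% in WT P30 and between 41.4% and 51.4% elsewhere (limma, adjusted p = 0.234 at P30 against P10). In these 3 genes the WT P30 libraries lay outside the range of all younger libraries. The share of all tandem sites that do so is not given here, so this does not set the 3 genes apart. WT P30 and WT P1 libraries alone did not overlap at 29.4% of tandem sites and 45.2% of all events tested.

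Ppp4c, the catalytic subunit of protein phosphatase 4, differed within groups instead. Its second triplet is GAG, and PSI of the upstream acceptor was 77.3% and 87.9% in WT P1, 83.5%, 69.7% and 77.8% in KO P1, and 78.8%, 71.7% and 88.2% in WT P30, with an SD of 5.92 points against a binomial SD of 2.04. Rg9mtd3, on chromosome 4 and 84.1 Mb from Khdrbs1, had 43.7% in KO P1 library 13 and 27.1% in KO P10 library 10, and between 91.9% and 100% in the other 11 libraries, on a mean of 22.4 reads.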
